A study of Mus musculus with 12 samples.

Results

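Astrocytes, oligodendrocyte lineage cells and microglia are the glia of the cortex, and a culture made from embryonic cortex can hold some of each beside its neurons. The 10 genes described here are standard markers of these cells: Gfap, Aqp4, Aldh1l1, Slc1a3 and Aldoc for astrocytes, Olig1, Olig2 and Sox10 for the oligodendrocyte lineage, and Cx3cr1 and Csf1r for microglia. Their chromatin was read from 12 ATAC-seq libraries, an assay in which the transposase Tn5 cuts accessible DNA so that open stretches give peaks of fragments. The peaks of all libraries were merged where they overlapped by 1 bp or more, and the regions inside each gene or within 20 kb on either side were taken. This gave 189 of the 263562 merged regions, 95 at the astrocyte genes, 34 at the oligodendrocyte lineage genes and 60 at the microglial genes.

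The cells were primary cortical neurons from embryonic day 18 wild-type C57BL/6 mouse embryos, with 3 libraries in each of 4 groups. The PBS group received vehicle for 7 days, and the PFF group received pre-formed fibrils of alpha-synuclein for 7 days. The PFF+MLi-2 group received the fibrils and, for the last 5 days, the LRRK2 kinase inhibitor MLi-2. The PFF+Rab5 ASO group received the fibrils and, for the last 3 days, antisense oligonucleotides against the endosomal GTPase Rab5, and the design holds no group with either agent but no fibrils. The comparisons share libraries, the PFF ones entering 3 of them. Cells were plated in serum and kept in serum-free neuronal medium, and the study's methods name the antimitotic Ara-C only for separate neuron-enriched cultures. The methods describe few GFAP-stained cells in standard cultures of this kind. The methods take each pregnancy as 1 biological replicate, whereas the labels give replicate numbers without naming a pregnancy. In a bulk library, fewer cells of a type and less open chromatin per cell cannot be told apart.

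The libraries held 137299 to 184564 peaks on chromosomes 1 to 19, X and Y. Depth was derived from the background that the peak caller used, divided by the width of the library's narrowest peak. Relative to the mean of the 12 libraries it ran from 0.775 to 1.03 in the PBS, PFF and PFF+MLi-2 libraries and from 1.05 to 1.31 in the PFF+Rab5 ASO libraries. The narrowest peak measured 62 to 66 bp in the former and 53 to 59 bp in the latter. The Rab5 ASO libraries stood apart on both, but a shorter width raises this depth by construction, so they are not separate measures. The median peak rested on 16 to 18 fragments at its summit. The height of a peak is given below as a percentile, the rank of its fold enrichment over background among all peaks of the same library, so that 50 is the middle of a library's own list. The fold is taken over local background, so a summit with many fragments can still rank low.

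Astrocytes and neurons arise from the same cortical progenitors, and astrocyte genes are opened as neurogenesis gives way to gliogenesis around birth. Gfap encodes the intermediate filament of astrocytes, Aqp4 their water channel, Aldh1l1 a folate enzyme, Slc1a3 the glutamate transporter GLAST and Aldoc an aldolase. Olig1 and Olig2 are basic helix-loop-helix factors that specify oligodendrocyte precursors, and they act with the SOX factor Sox10, which drives myelin genes. Microglia come from the yolk sac and not from neural progenitors, and they depend on the growth factor receptor Csf1r and carry the fractalkine receptor Cx3cr1.

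The promoters of these genes differ in sequence. The RefSeq promoter table (GRCm38.p6) held 6 of the 10 genes, Gfap, Aldh1l1, Slc1a3, Aldoc, Olig2 and Cx3cr1, and Aqp4, Olig1, Sox10 and Csf1r had no entry there. In the 250 bases before the start, the ratio of observed to expected CpG was 0.821 for Olig2, with 22 CpG in the window. The astrocyte and microglial promoters were poor in CpG, at 0.104 for Gfap, 0.160 for Slc1a3, 0.233 for Cx3cr1, 0.265 and 0.165 for the upstream and downstream Aldoc starts and 0.316 for Aldh1l1. The median over 32851 promoters was 0.373. Of 8162 protein-coding genes with a promoter in the table and a ratio of at least 0.6, 93.6% had an open region at the start in all 12 libraries, against 35.0% of 8353 genes under 0.6, and Olig2 belongs to the former set. The sequences below are those of promoters and regions whose peaks are described further on, and each is from RefSeq's GRCm38.p6, is written 5′ to 3′ on the strand of its gene and stops before the first annotated exon. Capitals mark matches on either strand to 7 motifs: ACAAAG and ACAATG (SOX factors), TTGGCA (the core bound by NFI factors), TTCCNGGAA (STAT factors), CAGCTG and CAGATG (E-boxes, bound by basic helix-loop-helix factors) and GAGGAAGT (PU.1, a myeloid factor). No motif contains another, and CAGCTG and TTCCNGGAA read the same on both strands.
Gfap promoter, chr11:102897201-102897450, minus strand, a low peak in most libraries: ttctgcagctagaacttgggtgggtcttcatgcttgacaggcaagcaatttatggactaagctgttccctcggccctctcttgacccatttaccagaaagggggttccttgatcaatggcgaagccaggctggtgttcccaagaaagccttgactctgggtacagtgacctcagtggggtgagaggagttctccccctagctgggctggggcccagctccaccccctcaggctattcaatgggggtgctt
Gfap upstream region, chr11:102898393-102898593, minus strand, high in all 12 libraries: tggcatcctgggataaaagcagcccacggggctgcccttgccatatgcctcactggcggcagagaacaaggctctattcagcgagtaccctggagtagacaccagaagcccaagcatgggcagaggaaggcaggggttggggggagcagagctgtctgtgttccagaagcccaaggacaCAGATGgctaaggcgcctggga
Aldh1l1 promoter, chr6:90550543-90550788, plus strand, high in all 12 libraries: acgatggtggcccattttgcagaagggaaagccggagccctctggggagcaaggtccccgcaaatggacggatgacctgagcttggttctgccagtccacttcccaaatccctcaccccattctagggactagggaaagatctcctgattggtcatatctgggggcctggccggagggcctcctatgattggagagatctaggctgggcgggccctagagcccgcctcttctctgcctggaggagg
Slc1a3 promoter, chr15:8710808-8711057, minus strand, the sequence before the start: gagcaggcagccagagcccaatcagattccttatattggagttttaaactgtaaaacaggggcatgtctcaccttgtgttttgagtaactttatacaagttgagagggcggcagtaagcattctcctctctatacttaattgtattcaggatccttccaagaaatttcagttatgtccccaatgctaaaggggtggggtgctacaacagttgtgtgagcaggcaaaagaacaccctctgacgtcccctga
Slc1a3 upstream region, chr15:8719128-8719328, minus strand, the member region with the largest height difference between PFF+Rab5 ASO and PFF: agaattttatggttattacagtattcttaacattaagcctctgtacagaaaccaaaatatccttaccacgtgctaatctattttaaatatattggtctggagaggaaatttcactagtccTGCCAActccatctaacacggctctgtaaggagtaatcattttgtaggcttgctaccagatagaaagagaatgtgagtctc
Olig2 promoter, chr16:91225300-91225456, plus strand, rich in CpG: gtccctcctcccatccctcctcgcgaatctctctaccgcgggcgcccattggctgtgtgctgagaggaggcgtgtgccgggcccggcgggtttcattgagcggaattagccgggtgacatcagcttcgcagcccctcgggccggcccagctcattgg
Olig1 upstream region, chr16:91266039-91266239, plus strand, open in all 12 libraries: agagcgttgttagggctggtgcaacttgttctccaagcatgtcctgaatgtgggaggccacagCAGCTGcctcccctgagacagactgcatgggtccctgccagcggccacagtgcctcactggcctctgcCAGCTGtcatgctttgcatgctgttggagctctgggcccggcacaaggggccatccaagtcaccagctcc
The Gfap, Aldh1l1 and Slc1a3 promoters held none of the 7 motifs in these 250 bases. The Gfap upstream region held 1 match to CAGATG, which was present in 20.8% of 72408 windows of 201 bases around the summits of the regions found in every library. The Slc1a3 upstream region held 1 match to TTGGCA, present in 19.4% of those windows, and the Olig1 upstream region held 2 matches to CAGCTG, present in 18.2%. The Olig2 promoter held 1 match to ACAATG (10.7% of promoters), inside an annotated exon and so not printed. The Cx3cr1 promoter held 1 match each to CAGCTG (13.0% of promoters) and CAGATG (14.4%), and none to GAGGAAGT, which 2.44% of promoters hold. The upstream Aldoc promoter held 1 match to TTGGCA (12.3% of promoters) and the downstream one 1 match to TTCCNGGAA (0.913%). Within 100 bp of the summits of the start-site regions themselves, TTCCNGGAA occurred in that of Gfap, against 0.729% of the 72408 windows. ACAAAG was present in 16.5% of promoters and 14.2% of windows, and in none of the member promoters.

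Open chromatin at the start sites differed among the 10 genes. A start-site region was a merged region within 1 kb of the start of a protein-coding transcript. Of the 5 astrocyte genes, Aldh1l1, Slc1a3 and Aldoc had one in all 12 libraries, as did Olig1 and Olig2 of the oligodendrocyte lineage. Gfap, Aqp4 and Sox10 had one in 11, 10 and 9 libraries, and Cx3cr1 and Csf1r had none in any library. Over all 21829 protein-coding genes, 61.7% had a start-site region in all 12 libraries, 7.87% in 1 to 11 and 30.4% in none.

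The astrocyte genes lie, in GENCODE vM21 on GRCm38, with Gfap (ENSMUSG00000020932.14) at chr11:102887336-102900912 on the minus strand, Aqp4 (ENSMUSG00000024411.10) at chr18:15389496-15410982 on the minus strand, Aldh1l1 (ENSMUSG00000030088.15) at chr6:90486427-90600203 on the plus strand, Slc1a3 (ENSMUSG00000005360.14) at chr15:8634124-8710764 on the minus strand and Aldoc (ENSMUSG00000017390.15) at chr11:78322968-78327781 on the plus strand. The oligodendrocyte lineage genes lie with Olig1 (ENSMUSG00000046160.6) at chr16:91269772-91271933 on the plus strand, Olig2 (ENSMUSG00000039830.9) at chr16:91225457-91228677 on the plus strand and Sox10 (ENSMUSG00000033006.10) at chr15:79154908-79165240 on the minus strand, and the microglial genes with Cx3cr1 (ENSMUSG00000052336.7) at chr9:119901616-120069879 on the minus strand and Csf1r (ENSMUSG00000024621.16) at chr18:61100598-61132149 on the plus strand.

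The Aldh1l1 start-site region, chr6:90550599-90550891, lay at percentiles of 94.8, 83.5 and 83.0 for PBS, 85.2, 86.5 and 86.6 for PFF, 86.8, 94.7 and 95.3 for PFF+MLi-2 and 80.4, 81.2 and 82.2 for PFF+Rab5 ASO. The Rab5 ASO libraries were the lowest, below all 9 others, the PFF libraries lay just below the PFF+MLi-2 ones, and the PBS group overlapped both. Its mean over the 12 libraries was 86.7, above 33.2% of the 13477 genes with a start-site region in every library. The region did not pass the test over the 4 groups (limma F test on normal scores of the rank, Benjamini-Hochberg over 72408 regions, adjusted p = 0.143).

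The Slc1a3 start-site region, chr15:8710149-8710639, had percentiles of 73.9, 79.8 and 79.3 for PBS, 78.0, 72.8 and 66.5 for PFF, 66.4, 72.0 and 59.8 for PFF+MLi-2 and 78.6, 67.2 and 77.5 for PFF+Rab5 ASO. The groups overlapped except that the PFF+MLi-2 libraries were below the PBS ones. A second region at the start, chr15:8710738-8710891, overlaps the printed promoter and had a peak in 11 libraries at 12 to 62.5, with 37.4 to 62.5 for PFF+MLi-2, above all other libraries, and none in PFF+Rab5 ASO replicate 2. The Aldoc start-site region, chr11:78322463-78323215, had percentiles of 80.2, 78.5 and 80.5 for PBS, 82.7, 80.9 and 80.5 for PFF, 73.9, 83.5 and 72.3 for PFF+MLi-2 and 78.2, 81.8 and 84.6 for PFF+Rab5 ASO. It spanned the narrowest range of these astrocyte start sites, 72.3 to 84.6, and all groups overlapped. Neither region passed the limma F test (adjusted p = 0.613 and 0.974).

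Gfap was the opposite case. Its start-site region, chr11:102897128-102897356, reached only percentiles of 3.46 to 5.01 for PBS, 7.03 to 8.52 for PFF and 3.70 to 4.50 for PFF+MLi-2, and with the Rab5 ASO it stood at 0.860 and 21.6 and had no peak in replicate 2. The 3 PFF libraries lay above all PBS and PFF+MLi-2 libraries, with means of 7.56 ± 0.833 against 4.14 ± 0.793 and 4.05 ± 0.409 (SD, n = 3), a spread of a few percentiles at the bottom of the list. With equal numbers of top peaks per library the means were 3.19 for PFF, 2.59 for PBS and 2.42 for PFF+MLi-2. A region within 1 kb of the start of a non-coding Gfap transcript, chr11:102900900-102901141, had the opposite order of means, 31.2 for PFF and 50.7 for PBS, with overlapping libraries. The start-site region did not enter the height test, which needs a peak in every library. Summits in it rested on 20 to 24 fragments. The region chr11:102898316-102898875, 1.12 kb upstream of the coding start, was high in every library, at percentiles of 86.6, 86.7 and 84.4 for PBS, 85.0, 84.1 and 86.4 for PFF, 85.5, 88.6 and 86.9 for PFF+MLi-2 and 80.7, 84.0 and 80.2 for PFF+Rab5 ASO, with 41 to 62 fragments at the summit. The Rab5 ASO libraries were again the lowest, below all 9 others, and the limma F test gave an adjusted p of 0.384. This upstream region lies within an intron of a longer non-coding Gfap transcript.

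Aqp4 showed a similar arrangement. Nothing was called within 1 kb of its most upstream start in any library, and its start-site region, chr18:15403583-15403714, sits at an internal start, within 1 kb of a start of the non-coding AC133525.2. It had a peak in 10 libraries at percentiles of 8.01 to 56.6, and it was absent from PFF replicate 2 and PFF+Rab5 ASO replicate 2. The PFF libraries with a peak, at 11.2 and 17.5, lay below all PBS (21.6 to 56.6) and PFF+MLi-2 (44.5 to 53.4) libraries. An intronic region 1.39 kb upstream of that start, chr18:15405146-15405438, had the highest mean of all member regions away from start sites, 94.8, at percentiles of 94.4, 94.4 and 95.3 for PBS, 96.2, 96.4 and 91.9 for PFF, 92.1, 96.4 and 95.0 for PFF+MLi-2 and 95.5, 95.6 and 93.8 for PFF+Rab5 ASO. All groups overlapped (limma F test, adjusted p = 0.995).

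In the oligodendrocyte lineage, Olig1 had the highest start-site region of the 10 genes. It lay at chr16:91269523-91269971 with percentiles of 88.1, 86.5 and 92.5 for PBS, 93.6, 90.4 and 88.8 for PFF, 86.7, 80.9 and 90.3 for PFF+MLi-2 and 88.7, 90.4 and 87.2 for PFF+Rab5 ASO, and all groups overlapped. The Olig2 start-site region, chr16:91225160-91225666, was lower, with percentiles of 67.7, 73.1 and 76.2 for PBS, 71.4, 73.7 and 61.2 for PFF, 74.3, 78.6 and 76.5 for PFF+MLi-2 and 79.8, 67.4 and 54.8 for PFF+Rab5 ASO. The PFF+MLi-2 libraries lay above the PFF ones, and the Rab5 ASO libraries reached from above the range of the rest to below it, with a mean of 67.3 ± 12.5 (SD, n = 3). Neither passed the limma F test (adjusted p = 0.803 and 0.450). The order of the 5 genes open in all libraries was Olig1 (mean 88.7), Aldh1l1 (86.7), Aldoc (79.8), Slc1a3 (72.6) and Olig2 (71.2), and the ranges of neighbours in that order overlapped in every case. All 5 lay below 92.4, the median of such means over the 13477 genes with a start-site region in every library. They were above 37.9% (Olig1), 33.2% (Aldh1l1), 21.5% (Aldoc), 14.3% (Slc1a3) and 13.1% (Olig2) of those genes.

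Sox10, which is switched on after Olig2 in this lineage, had a low start-site region that was not called in every library. The region chr15:79164397-79164657 had percentiles of 10.8 and 12.7 in 2 of 3 PBS libraries, 11 to 15.8 with PFF, 5.80 to 19.4 with PFF+MLi-2 and 2.85 in 1 of 3 libraries with the Rab5 ASO. It was thus present in 8 of 9 libraries without the Rab5 ASO and 1 of 3 with it, on 15 to 23 fragments.

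The microglial genes had no peak within 1 kb of a protein-coding start. For Cx3cr1 the nearest region to an annotated start, chr9:120073210-120073462, lay 3.33 kb upstream and was present in all 12 libraries, at 26.5 in PBS replicate 2 and 60.3 to 85.3 in the others, with overlapping groups. For Csf1r no region of the window was present in all 12 libraries. Its most frequent region, chr18:61108459-61108823, lay 2.61 kb downstream of the nearest start, in intron 1 or 2 depending on the transcript, and had percentiles of 12.7 to 36.7 in all 9 libraries without the Rab5 ASO, and of the 3 with it only replicate 1 had a peak, at 33.4. Summits there held 13 to 17 fragments, close to the median peak. A second intronic region, chr18:61106914-61107104, was present in 8 libraries (2.48 to 51.3) and one at chr18:61100570-61100756, at the start of a non-coding Csf1r transcript, in 7 (8.67 to 63.5).

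**Figure D1:**
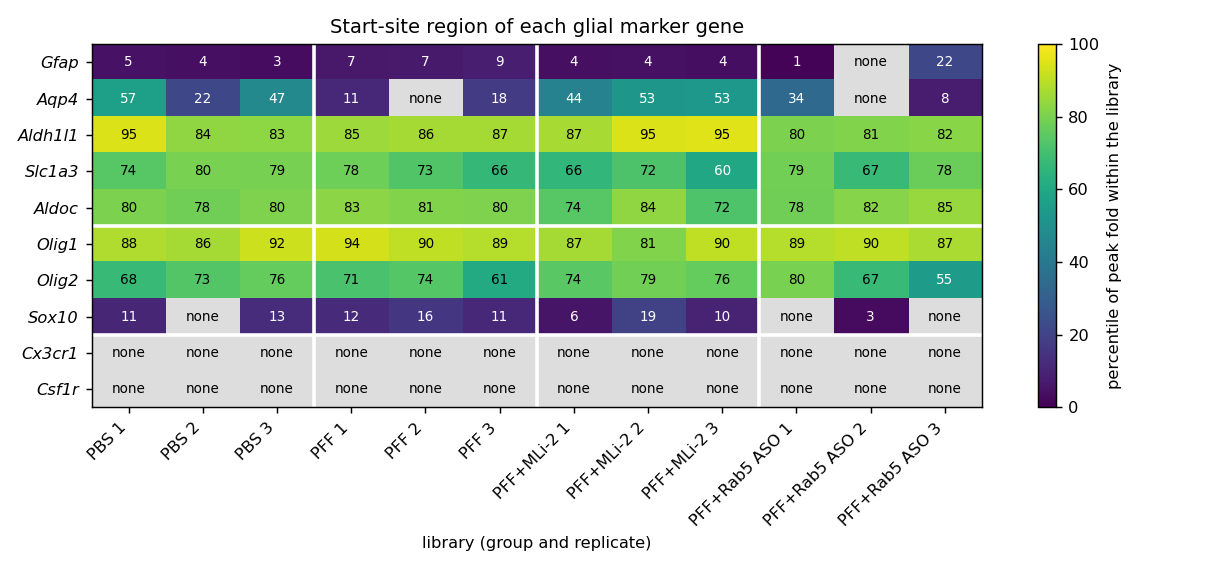
Percentile of the peak fold within its own library (0 to 100, colour and number, rounded) for the start-site region of each gene (rows) in each of the 12 libraries (columns); grey cells have no peak. Olig1, Aldh1l1, Aldoc, Slc1a3 and Olig2 are filled throughout at 54.8 or more, Gfap and Sox10 stay at 21.6 or less, and Cx3cr1 and Csf1r are empty.

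Further markers of the same classes were read in the same way. Of 10 further astrocyte genes, 8 had a start-site region in all 12 libraries, from Agt at a mean percentile of 50.9 to Mlc1 at 93.9, and 2 (Gja1 and Gjb6) in 11. Of 10 further oligodendrocyte lineage genes, 4 had one in all libraries, the myelin genes Cnp (65.3) and Mbp (73.9), Myrf (75.5), the myelin regulatory factor, and the precursor receptor Pdgfra (79.7). Mog and Mobp, also myelin genes, had none. Where a gene had several starts, the region with a peak in the most libraries was taken, for Mbp chr18:82475010-82475380. A value therefore need not hold for every start of a gene. Of 10 further microglial genes, 4 had a start-site region in 3 to 9 libraries and 5, among them Spi1, the gene of PU.1, had none. As a check of the labelled cell type, all 12 neuronal genes were open in all 12 libraries, from Slc17a7 (14.3) to Syt1 (97.3), and so were all 6 progenitor genes, from Hes5 (31.2) to Sox2 (84.4). Of 6 vascular genes 2 were open in all libraries (Flt1 at 51.1 and Pdgfrb at 66.9), and of 8 genes of other organs none was, with Ins2 called in 5 libraries. Per library, the further oligodendrocyte list had 4 to 7 start-site peaks, with overlapping groups. The further microglial list had 4, 2 and 2 for PBS, 4 in each PFF library, 2 to 3 for PFF+MLi-2 and 2 to 3 for PFF+Rab5 ASO, so that PFF lay above the last 2 groups and overlapped PBS.

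**Figure D2:**
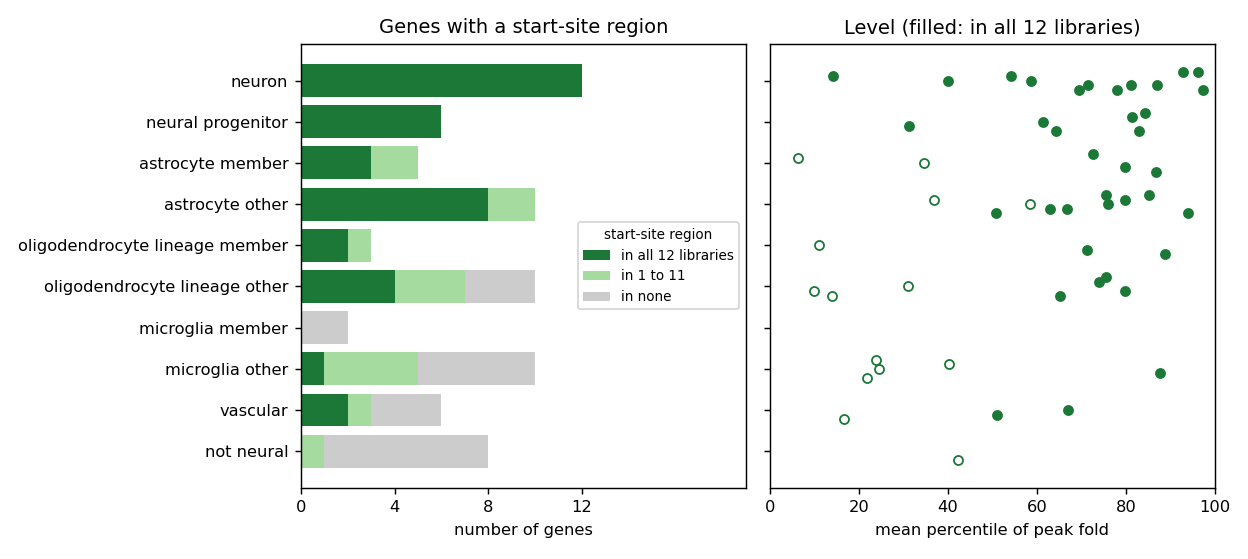
Left, number of genes in each marker list whose start-site region has a peak in all 12 libraries, in 1 to 11 or in none. Right, mean percentile of that region over the libraries with a peak, one point per gene, filled where all 12 have one. The neuronal and progenitor lists are open throughout, whereas 7 of the 12 microglial genes have no start-site region.

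Of the 189 regions 22 lay at the members' own starts, 30 at starts of other genes, 71 in the members' introns, 27 in introns of other genes and 30 between genes, and the few others in exons. In all, 65 (34.4%) had a peak in all 12 libraries, against 27.5% of all regions, and 40 (21.2%) were called in 1 library, against 26.6%. The median percentile of the 65 was 69.7, against 73.7 over all 72408 such regions. The share in all 12 was 40.0% at the astrocyte genes, 29.4% at the oligodendrocyte lineage genes and 28.3% at the microglial genes.

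The count at Cx3cr1 needs its annotation beside it. In GENCODE vM21 this gene spans 168 kb because of 1 long isoform, and only 8 of its 49 regions are nearest to its own coding start. Its highest regions lie at neighbours, the Wdr48 and Gm2449 start at chr9:119894616-119895235 (mean percentile 97.5), the shared start of Gorasp1 and Ttc21a at chr9:119937326-119937867 (93.8) and, inside the non-coding Gm49427, chr9:120010937-120011600 (93.4). Of the 112 regions nearest to a member's own start, 31 (27.7%) were present in all 12 libraries, with a median percentile of 71.1.

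The astrocyte genes had several strong distal regions. At Aldh1l1 these were chr6:90484818-90485239 and chr6:90534986-90535599 (mean percentile 90 each, 65.5 and 15.2 kb upstream of the coding start, the former beyond the gene's 5′ end and nearest to another gene's start) and chr6:90506744-90507285 (89.7, also nearest to another gene's coding start). At Slc1a3 they were chr15:8629277-8629869, past the 3′ end of the gene (90.3), chr15:8717012-8717555, 6.25 kb upstream (82.6), and chr15:8663592-8664096 in intron 3 (74.5). Beside its upstream region, the highest regions in the Gfap window were the start of Ccdc103 and Eftud2 at chr11:102880847-102881500 (84.1) and an Eftud2 intron at chr11:102874747-102875405 (64.0). The Aldoc window was led by the starts of Pigs at chr11:78328161-78328730 (92.0) and of Unc119 at chr11:78343359-78343958 (86.5), with a second Unc119 region at 7.54, and the Aqp4 window held a region 10.4 kb upstream at chr18:15421349-15421810 (68.1) and one in 7 libraries at chr18:15406954-15407172 (19.2).

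The lineage factors had fewer. Olig1 had an upstream region 3.42 kb away at chr16:91265977-91266350 (62.3), one at the non-coding Gm37016 at chr16:91262567-91263260 (78.4) and a weak one in 11 libraries, chr16:91270570-91270847 (19.8). Olig2 had chr16:91233403-91234057, 7.95 kb downstream (69.7), and in 11 libraries chr16:91246345-91246534 (44.9) and the Gm49614 start at chr16:91222560-91222851 (22.4). The Sox10 window was led by the Polr2f start at chr15:79140919-79141573 (93.8), and the distal regions chr15:79185185-79185492 (61.6) and chr15:79151913-79152257 (57.8), the latter nearest to another gene's coding start, had a peak in every library, which the Sox10 start-site region did not.

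**Figure D3:**
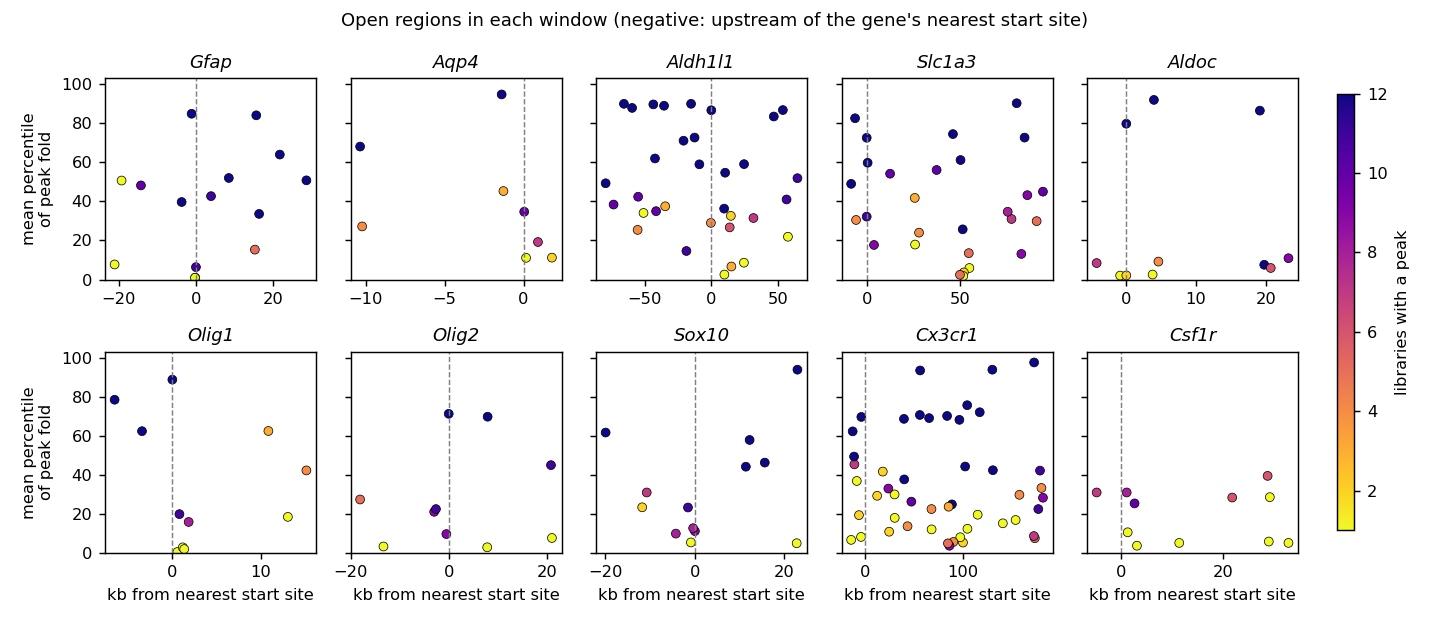
Each point is 1 of the 189 regions, placed by its distance in kb from the gene's nearest protein-coding start (dashed line, negative upstream) and its mean percentile over the libraries with a peak, and coloured by the number of libraries with a peak. Aldh1l1 and Slc1a3 carry high regions far from the start, Gfap has its high region just upstream of a low one, and the Csf1r window has no point in all 12 libraries.

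The first comparison asks what the fibrils did. In PFF vs PBS, 0 of the 65 member regions open in every library passed the height test (limma on 6 libraries, adjusted p under 0.05), and 0% of the 72408 regions did. At an unadjusted p under 0.05 there were 7 (10.8%), against 9.71% of all regions. The ranks of the 2 groups of 3 libraries did not overlap for 9 (13.8%), against 15.1%. All 9 were lower in PFF, where 7.99% of all regions were lower and 7.07% higher. Among the printed percentiles, which rank each library's whole list, the groups stood apart for 4 member regions higher in PFF (8.26% of all regions) and 6 lower (6.37%), so that the split moved with the ranking. Differences ran from -0.67 to 0.88 standard deviations of the rank score, and the median over all regions was -0.02.

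Presence differed at 4 regions, where a region is gained with a peak in 3 of 3 libraries against 0 of 3 and lost in the reverse case. Of 169 member regions with a peak in either group 2 (1.18%) were gained, against 1.10% of all regions, and 2 (1.18%) were lost, against 0.404%. The gained ones were chr6:90550328-90550480, 309 bp upstream of the Aldh1l1 start (22.0, 16.0 and 41.0 in PFF), and chr16:91280600-91280868, 10.8 kb downstream of Olig1 in an intron of the non-coding Gm15966 (48.8, 66.8 and 71.5). The lost ones were at the Ccdc103 and Eftud2 start in the Gfap window, chr11:102881770-102881863 (10.3, 12.4 and 36.3 in PBS), and in a Spag5 intron in the Aldoc window, chr11:78318589-78318716 (6.12, 10.1 and 2.78). The Olig1 region was present only in the 3 PFF libraries of the 12, on 13 to 18 fragments.

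In PFF+MLi-2 vs PFF, again 0 of 65 member regions and 0% of all regions passed the limma height test. Unadjusted, 11 (16.9%) passed against 11.4% of all regions, and 14 (21.5%) had groups without overlap against 17.6%, 9 of them higher with MLi-2 (10.1% of all regions) and 5 lower (7.54%). By percentile 8 were higher (5.23%) and 12 lower (12.9%). No member region was gained (0.374% of all regions were), and 4 of 166 (2.41%) were lost, against 1.64%. These were the Olig1 region just named, chr6:90495285-90495517 upstream of the Aldh1l1 coding start (21.6, 27.6 and 29.8 in PFF), and 2 regions at neighbours of Cx3cr1, the Wdr48 and Gm2449 start at chr9:119894329-119894491 (0.485, 3.34 and 6.86) and the Xirp1 start at chr9:120024246-120024453 (11.7, 23.8 and 8.28). Against PBS, 0 of 65 passed (0% of all regions), 5 (7.69%) passed unadjusted against 5.77%, and 9 (13.8%) did not overlap against 10.3%, 3 higher (5.21%) and 6 lower (5.13%), or by percentile 2 higher (3.12%) and 9 lower (7.48%). None was gained (0.226% of all regions) and 1 of 157 (0.637%) was lost, against 0.577%, chr15:8682180-8682289 in intron 3 of Slc1a3 (39.7, 17.9 and 29.9 in PBS).

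The Rab5 ASO comparison held the height calls. In PFF+Rab5 ASO vs PFF, 3 of 65 member regions (4.62%) passed the limma test, against 3.82% of all regions. Unadjusted, 10 (15.4%) passed, against 21.1%, and 11 (16.9%) did not overlap, against 25.9%, with 4 higher (13.5% of all regions) and 7 lower (12.4%), or by percentile 5 higher (13.9%) and 9 lower (12%). Against PBS 0 of 65 passed the same test, where 1.63% of all regions did, 13 (20%) passed unadjusted against 18.7%, and 19 (29.2%) did not overlap against 23.0%, with 8 higher (11.4%) and 11 lower (11.6%), or by percentile 9 higher (13.3%) and 8 lower (9.03%). The test over all 4 groups called 4 of 65 (6.15%), against 3.50% of all regions, and 15 (23.1%) unadjusted, against 21.7%.

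The Slc1a3 upstream region printed above, 8.35 kb from the start at chr15:8719118-8719425, had percentiles of 45, 46.5 and 46.2 for PBS, 6.87, 39.6 and 28.3 for PFF, 56.7, 50.7 and 58.1 for PFF+MLi-2 and 72.0, 72.9 and 65.5 for PFF+Rab5 ASO. The 4 groups did not overlap, with PFF lowest and PFF+Rab5 ASO highest. The difference between PFF+Rab5 ASO and PFF was 1.44 ± 0.271 standard deviations of the rank score (SE, limma adjusted p = 0.0268, n = 3 libraries a group), and the F test over the groups gave an adjusted p of 0.0265. Neither PFF vs PBS nor PFF+MLi-2 vs PFF passed for this region (-0.64 ± 0.285 and 1.02 ± 0.278, limma adjusted p = 0.512 and 0.271). The call against PFF held in 2 of the 6 fits that each left out 1 library (limma adjusted p = 0.0406 to 0.0805) and was lost without PFF replicate 3 or any PFF+Rab5 ASO library, and the F call was lost without each PFF+Rab5 ASO library (0.0698, 0.0760 and 0.0713).

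At Aldh1l1, the region chr6:90597725-90597974 in intron 21, 46.9 kb from the Aldh1l1 start and nearer to the coding start of another gene, fell with the Rab5 ASO. It had percentiles of 87.8, 83.3 and 86.1 for PBS, 90.7, 87.3 and 85.4 for PFF, 88.3, 85.6 and 89.6 for PFF+MLi-2 and 72.6, 75.5 and 69.4 for PFF+Rab5 ASO, so that the 3 Rab5 ASO libraries were below all 9 others. The difference from PFF was -0.82 ± 0.193 (SE, limma adjusted p = 0.0482), which no fit without 1 library kept (0.0840 to 0.129). A fit with the replicate number as a block did not keep it either (limma adjusted p = 0.0798). The limma F test gave an adjusted p of 0.0305, lost without each PFF+Rab5 ASO library (0.107, 0.0754 and 0.116). A region 8.95 kb upstream of the coding start, chr6:90541378-90541839, passed the F test alone (limma adjusted p = 0.0263, lost without PFF+Rab5 ASO replicate 2 or 3 at 0.0780 and 0.0851), with percentiles of 76.7, 64.3 and 65.7 for PBS, 57.5, 53.7 and 53.9 for PFF, 72.1, 73.3 and 64.6 for PFF+MLi-2 and 58.1, 34.3 and 33.9 for PFF+Rab5 ASO. The PFF libraries, at 53.7 to 57.5, were below every PBS and PFF+MLi-2 library, although that pair of differences did not pass on its own (limma adjusted p = 0.379 and 0.266).

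The other 2 calls were at a low region and at a neighbour. An intron 3 region of Slc1a3, chr15:8658676-8658850, passed the F test (limma adjusted p = 0.0476) with percentiles of 24.1, 22.8 and 3.85 for PBS, 44.3, 7.63 and 39.4 for PFF, 4.01, 4.11 and 4.17 for PFF+MLi-2 and 63.7, 36.4 and 53.7 for PFF+Rab5 ASO. That call held in 3 of 12 fits without 1 library (0.0284 to 0.142) and was lost when ranks were taken from the -log10 p (0.158). In the long Cx3cr1 window, chr9:119950476-119950740, inside Ttc21a and 118 kb from the Cx3cr1 start, had percentiles of 84.5, 75.6 and 85.0 for PBS, 88.6, 84.4 and 85.5 for PFF, 77.2, 59.1 and 58.5 for PFF+MLi-2 and 77.5, 51.6 and 36.0 for PFF+Rab5 ASO. PFF+Rab5 ASO differed from PFF by -1.27 ± 0.296 (SE, limma adjusted p = 0.0467), which no fit without 1 library kept (0.0549 to 0.127). With ranks from the -log10 p, the 3 calls against PFF had limma adjusted p-values of 0.0527 at the Slc1a3 upstream region, 0.0645 at the Aldh1l1 intron and 0.0918 here.

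**Figure D4:**
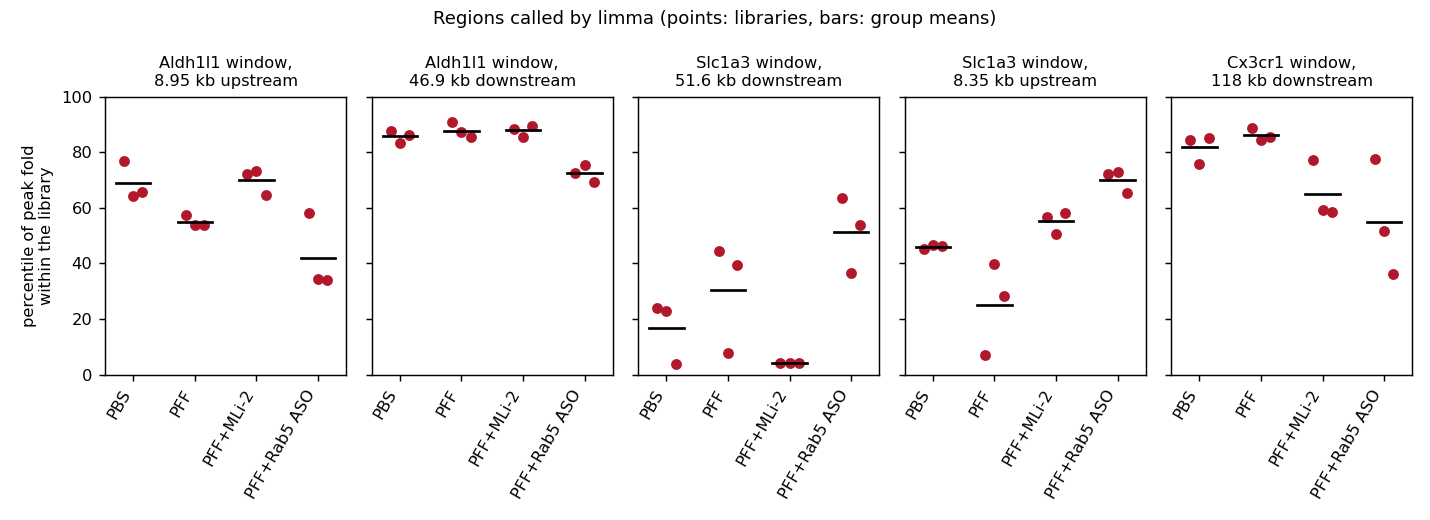
Percentile of the peak fold within its library (0 to 100) for the 5 member regions called by limma, by group. Points are libraries and bars are group means, n = 3. In the Slc1a3 region 8.35 kb upstream the 3 PFF+Rab5 ASO points (65.5 to 72.9) lie above all others, and in the Aldh1l1 region 46.9 kb downstream they lie below all others (69.4 to 75.5).

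In presence, more member regions were lost than gained in the Rab5 ASO libraries. Against PFF, 2 of 172 member regions (1.16%) were gained, where 2.63% of all regions were, and 9 (5.23%) were lost, where 1.94% were. Against PBS, 2 of 161 (1.24%) were gained, against 2.59%, and 7 (4.35%) were lost, against 0.992%. Both comparisons share the Rab5 ASO libraries. Lost in both comparisons were the Gm49614 start upstream of Olig2, chr16:91222241-91222490 (2.65 to 47.8), and 2 intronic regions of the Cx3cr1 window, chr9:119981372-119981694 inside Csrnp1 (0.215 to 10.6) and chr9:120043758-120044026 (14.3 to 45.5). Each had a peak in all 9 libraries without the Rab5 ASO. The share of all regions with that pattern is not given here, so these regions cannot be called many or few.

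The other 6 lost against PFF were both Aldh1l1 regions named above at chr6:90550328-90550480 and chr6:90495285-90495517, the Olig1 region present only in PFF, the Wdr48 and Xirp1 start regions and chr15:8619009-8619151 past the 3′ end of Slc1a3 (5.33, 16.4 and 26.9 in PFF). The other 4 lost against PBS were chr15:8632396-8632655 at Slc1a3 (26.5, 37.5 and 38.1 in PBS), the intron 3 region of Slc1a3 named for PFF+MLi-2, chr15:79176007-79176202 upstream of Sox10 (43.6, 45.2 and 35.4) and the Ccdc103 and Eftud2 start. The gained ones were the Gm37310 start inside Slc1a3, chr15:8655379-8655586 (42.3, 3.23 and 11.6 in PFF+Rab5 ASO), against both groups, chr16:91284886-91285005 downstream of Olig1 (48.0, 55.4 and 57.6) against PFF, and chr6:90564657-90564790 in intron 7 of Aldh1l1 (32.2, 43.0 and 35.8) against PBS. Summits in these gained and lost regions held 9 to 30 fragments.

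Relative to all regions, the share of member regions with a peak was lowest in the 3 Rab5 ASO libraries. PBS libraries had 67.7%, 57.7% and 60.3%, PFF libraries 67.2%, 67.2% and 64.6%, PFF+MLi-2 libraries 57.1%, 59.3% and 62.4% and PFF+Rab5 ASO libraries 62.4%, 54.0% and 51.9%. Over all regions the share was 50% to 58.7% with the Rab5 ASO, within the 43.4% to 59.1% of the rest. The ratio of the member share to the share over all regions was 1.15 to 1.35 in the 9 libraries without the Rab5 ASO and 1.06, 1.01 and 1.04 with it, so that these groups did not overlap. With the same number of top peaks taken from every library the ratio was 1.15 to 1.31 against 0.998 to 1.11, and over the 112 regions nearest to a member's own start it was 1.09 to 1.35 against 0.952 to 1.00. The regions of the windows nearest to other genes' starts had the same order of groups, at 1.23 to 1.5 against 1.09 to 1.15. These shares carry no test because the members were chosen with results known.

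By class, the ratio in the Rab5 ASO libraries was 1.15 ± 0.0808 at the astrocyte genes, against 1.38 ± 0.132 for PBS, 1.31 ± 0.0833 for PFF and 1.46 ± 0.0153 for PFF+MLi-2 (SD, n = 3). At the oligodendrocyte lineage genes it was 0.962 ± 0.0337, against 1.27 ± 0.199, 1.24 ± 0.0700 and 1.29 ± 0.244, and in the windows of the 10 further genes of that lineage 1.01 ± 0.0592, against 1.18 ± 0.0737, 1.27 ± 0.0819 and 1.21 ± 0.0503. In each of these 3 lists every Rab5 ASO library lay below all 9 others. In the windows of the 10 further astrocyte genes the groups overlapped (0.968 to 1.00 with the Rab5 ASO and 0.976 to 1.14 without). The neuronal windows lay near 1 in all groups (0.943 to 1.06), the vascular windows at 0.711 to 1.05 and those of genes of other organs at 0.875 to 1.11. The progenitor windows were highest with PFF+MLi-2 (1.20 to 1.26) and at 1.05 to 1.14 in the other groups. At the microglial genes PFF was highest (1.17 ± 0.0379, against 1.02 ± 0.0212 for PBS, 0.990 ± 0.0959 for PFF+MLi-2 and 0.892 ± 0.0848 for PFF+Rab5 ASO), with no overlap between PFF and the other groups, in windows where most regions are nearest to other genes. In the windows of the 10 further microglial genes PFF (1.03 to 1.08) overlapped the rest (0.890 to 1.19). The shorter smallest peak width of the Rab5 ASO libraries, and the greater depth derived with that width, moved with these shares. Their part in the result was not tested.

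**Figure D5:**
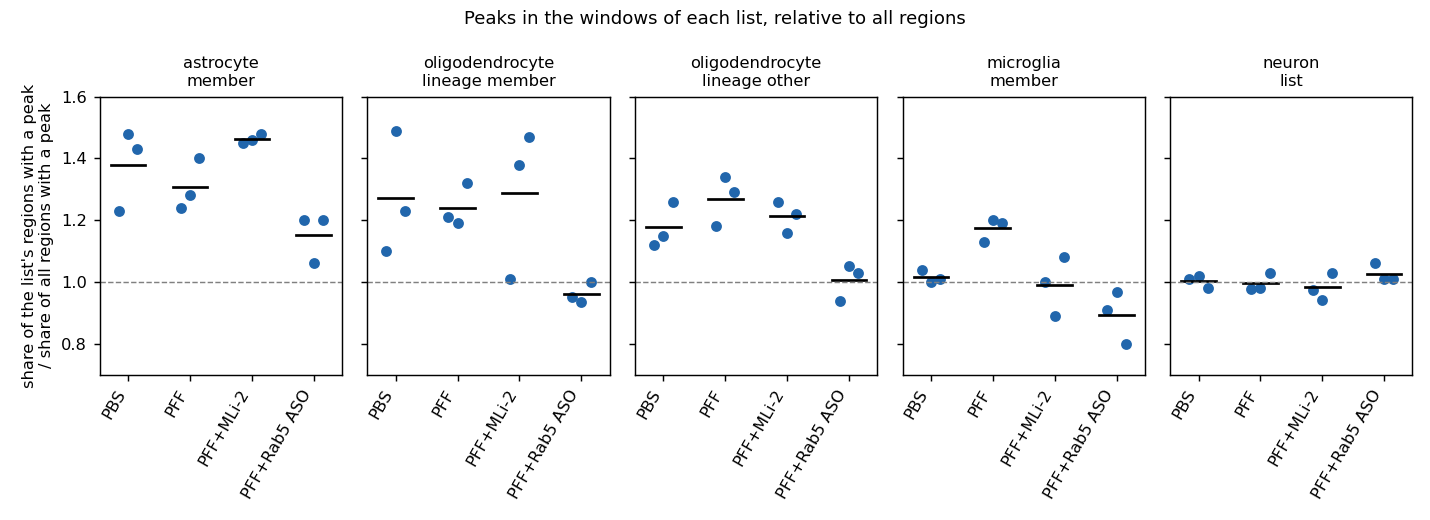
Share of the regions in each list's windows with a peak, divided by the share of all regions with a peak in the same library (linear ratio, axis from 0.7 to 1.6, dashed line at 1). Points are libraries, bars are group means, n = 3. The PFF+Rab5 ASO points are the lowest in the astrocyte and both oligodendrocyte lineage panels, the PFF points are the highest in the microglial panel, and the neuronal panel is level.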

How the data were processed

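ATAC-seq peaks of 12 libraries were analysed. Per the study's methods and the submitters' processing notes, the authors used Trim Galore 0.6.7 for trimming and Bowtie2 2.5.1 for alignment to GRCm38, and called peaks per library with MACS2 2.2.7.1. MACS2 options, duplicate removal and any Tn5 shift are not given in the sources used here, and each alters peak number, width and height. The deposited lists give for each peak a fold over background (a ratio), -log10 p and -log10 q values, a score and a summit. The deposited score and the summit offset entered no test. For the libraries with MLi-2 or Rab5 ASO, the description field mentions PBS where title and treatment say PFF, and title and treatment were followed. The labels place all libraries in batch 1.

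Peaks on chromosomes 1 to 19, X and Y were merged at 1 bp overlap, and no peak passed a GRCm38 chromosome end. Genes are from GENCODE vM21. Summit pileup and background were solved from the fold and the -log10 p. Background divided by the narrowest peak width gave relative depth, and reads were not counted. Ranks of fold over 72408 regions with a peak in all 12 libraries became normal scores, tested with limma 3.58.1 in R 4.3.3 (two-sided, Benjamini-Hochberg, adjusted p under 0.05), checked on simulated data. With 3 libraries against 3 an exact test cannot go below p = 0.1, so presence was counted. Named were each gene's start-site region, up to 3 further regions in most libraries and highest in percentile, and every gained, lost or called region; of the other lists, genes at the ends of the order, with a few more named after their values were seen. Values of some further list genes are not reported here. The members and lists were chosen with earlier results of these data known. Alternatives were -log10 p ranks, equal numbers of top peaks, -log10 q of at least 3, 50 bp overlap, 5 kb windows, a replicate block and leaving out each library. Python 3.11.15 with numpy 2.4.6, pandas 2.3.3 and matplotlib 3.10.9 did the rest.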

Additional observations from a re-analysis of the deposited data

How the results depend on the processing

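The 5 start-site regions present in all 12 libraries stayed so with an equal number of top peaks, with a -log10 q of at least 3 and at 50 bp overlap, and Cx3cr1 and Csf1r stayed without one. The Gfap, Aqp4 and Sox10 regions were in 10, 8 and 8 libraries with equal numbers of top peaks. With the starts of non-coding transcripts added, a choice made after seeing the data, the Gfap region became chr11:102900900-102901141, present in 12 libraries with mean percentiles of 50.7 for PBS, 31.2 for PFF and 34.3 for PFF+MLi-2, so that PFF was below PBS there, and Csf1r gained one in 7.

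The number of member regions was 163 with equal numbers of top peaks, 182 with -log10 q of at least 3, 235 at 50 bp overlap and 134 in 5 kb windows. Under every alternative run, no height call was made between PFF+MLi-2 and either PFF or PBS, or between PFF and PBS. The 3 calls in PFF+Rab5 ASO vs PFF became 0 when ranked by -log10 p, 1 over regions with a peak in all 6 libraries, 1 over regions nearest to the member's own start (chosen after seeing the data) and 0 to 1 without 1 library. PFF+Rab5 ASO vs PBS had 3 calls with the spread from all 12 libraries. The 4 calls over the 4 groups became 2 with equal numbers of top peaks and 0 to 4 without 1 library (2 without PFF+Rab5 ASO replicate 1, 0 without replicate 2 and 0 without replicate 3).

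Same-numbered libraries deviated together only weakly (correlations 0.01 to 0.08 over regions), although each was highest with its own number. No label names a source shared by a number, so the main tests did not take the numbers as pairs, and a replicate block was fitted as an alternative. With a replicate block, 2 calls were made in PFF+Rab5 ASO vs PFF (the Aldh1l1 intron 21 region had a limma adjusted p of 0.0798), 5 over the 4 groups (the Slc1a3 intron 3 region had 0.0596) and 0 in the other comparisons.

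Gained and lost regions together numbered 4 in PFF vs PBS, and 11 when 2 of 3 libraries against 0 sufficed, 2 in 5 kb windows and 4 to 11 without 1 library (11 without PBS replicate 1 and 11 without PFF replicate 1). In PFF+MLi-2 vs PFF the 4 became 12, 2 and 4 to 11 (11 without PFF replicate 1 and 7 without PFF+MLi-2 replicate 3) under the same changes, and 1 over regions nearest to the member's own start. In PFF+Rab5 ASO vs PFF the 11 became 22, 7 and 11 to 17 (17 without PFF replicate 1), and 6 over those nearest regions. In PFF+MLi-2 vs PBS the 1 became 7 at 2 of 3 libraries, 2 at 50 bp overlap and 1 to 4 without 1 library (4 without PFF+MLi-2 replicate 2 and 3 without any PBS library), and in PFF+Rab5 ASO vs PBS the 9 became 15 and 11 to 13. Leaving out a library loosens the rule by construction, since fewer libraries must hold the peak. A missing call cannot be read as closed chromatin, and the part of depth in missing calls was not tested. The cause of these shifts was not tested.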
